A study of Homo sapiens with 4 samples.

Results

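The regions described here are the autosomal stretches of DNA that were most strongly pulled down by an antibody against 5-methylcytosine in both PKCλ/ι knockout and control C42B cells. Each is a control peak with a pileup, the number of fragments stacked over its summit, of at least 60 that shares at least 1 bp with a knockout peak of pileup at least 90. Peaks whose local background exceeded 5 times the lowest background of their list were left out. The rule found 3020 control peaks among 256848 on the autosomes and 261657 in the whole control list, and they overlapped 2979 qualifying knockout peaks among 290447 on the autosomes and 296521 in the whole knockout list. A region's knockout value below is that of its highest qualifying partner. The members were chosen by their pileups, so pileup, fold enrichment and the ratio between genotypes are given as descriptions with no test.

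The samples came from C42B cells, a human prostate cancer line, that carried either a guide RNA against PKCλ/ι (labelled sgPKCl/i, KO) or a control guide (sgC, WT). Each genotype had 1 immunoprecipitated library, to which 1 of the 2 lists belongs, and 1 input library, and no difference between genotypes has a replicate check. All cells were grown in RPMI medium with 10% fetal bovine serum, received no treatment and were harvested 48 h after plating at about 70% confluency. PKCλ/ι is an atypical protein kinase C encoded by PRKCI, and the labels do not tell a clone from a pool of knockout cells. The lists hold no expression or editing readout, so the genotype labels and the prostate identity of the cells could not be checked from them. The mean genome-wide pileup, taken as the lowest background of each list, was 4.42 in the knockout and 2.92 in the control. The knockout library was thus 1.51 times as deep, and pileups are also given divided by these means, as scaled pileups.

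DNA methylation in human cells sits mostly on cytosines followed by guanine (CpG), and is copied after replication by DNMT1 and set by DNMT3A and DNMT3B with S-adenosylmethionine as the methyl donor. Most CpGs of a somatic genome are methylated, while the CpG-dense islands at many promoters are not, and cancers are known to gain methylation at some islands and lose it over broad domains. MeDIP, the method used here, captures single-stranded fragments by their 5-methylcytosines, so its signal grows with the number of methylated CpGs in a fragment as well as with the share that is methylated. It also grows with the number of copies of a sequence in the genome. A high pileup is therefore not a percentage of methylation, and the local background is given beside it.

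The members stood far above the usual methylated region in both genotypes. Their pileups ran from 90 to 219 with a median of 110 in the knockout, and from 60 to 162 with a median of 67 in the control. Scaled to the library means, the medians were 24.9 in the knockout (quartiles 22.4 and 27.8) and 22.9 in the control (quartiles 21.6 and 25.3). All autosomal peaks had median scaled pileups of 8.14 in the knockout and 8.55 in the control. Most members thus lay close above the thresholds, which are 20.3 library means in the knockout and 20.5 in the control.

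The authors' fold enrichment, which divides the pileup by the local background, separated the members less. Its median in members was 9.21 in the knockout and 9.39 in the control, against 5.36 in all autosomal knockout peaks and 5.49 in all autosomal control peaks. The lowest member fold was 4.19 in the knockout and 4.20 in the control. The members' background had a median of 2.55 times the lowest in the knockout and 2.21 times in the control. Over all autosomal peaks it was 1.27 times in the knockout and 1.14 times in the control. Only 1.26% of members in the knockout and 1.39% in the control had a background at its lowest value, against 27.8% of all autosomal knockout peaks and 30.9% of all autosomal control peaks. The name "most heavily methylated" therefore holds for pileup, and the members also lay where the background was high. The part of that background in their pileup was not tested.

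**Figure D1:**
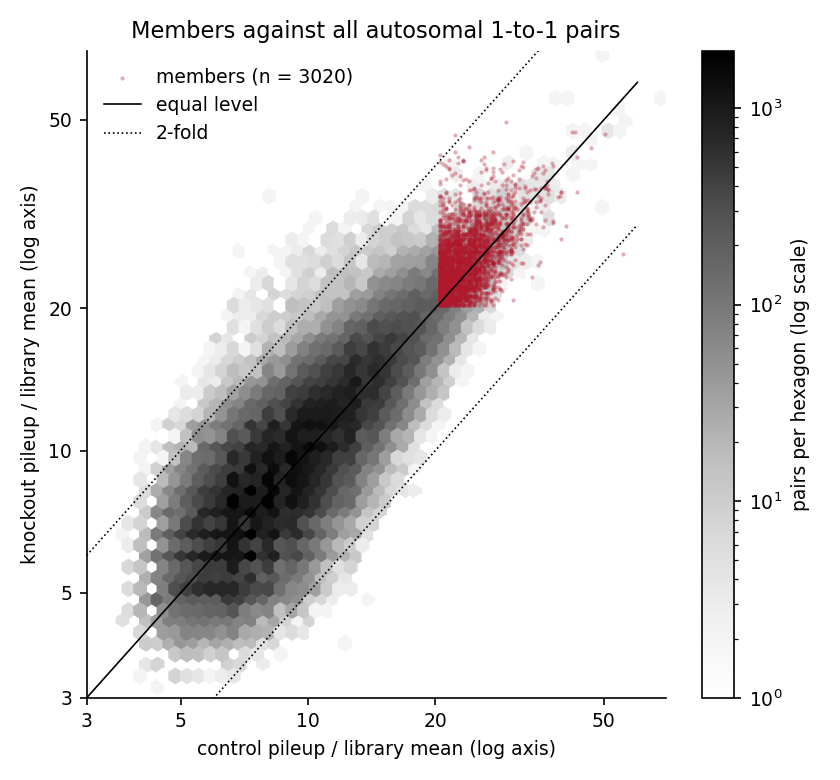
Knockout pileup (vertical axis) against control pileup (horizontal axis), each divided by its library mean, on log axes. Red points are the 3020 members and grey hexagons the 202907 autosomal pairs in which each peak overlaps exactly 1 peak of the other list. The members fill the upper corner cut by the thresholds of 20.3 and 20.5, and all but 3 of them lie between the dotted lines of a 2-fold difference.

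Near the thresholds the pileup changed in single fragments. Among knockout peaks within the background limit, 399 had a pileup of 90, just inside, and 496 had 89, just outside. Of the 399, 67 overlapped a member. Among control peaks within the limit, 455 had a pileup of 60 and 388 had 61, just inside, and 484 had 59, just outside. Of these, 248 with 60 and 207 with 61 were members. The region at chr1:1276701-1278479 was inside with pileups of 93 in the knockout and 60 in the control. The region at chr1:1152079-1152652 was outside with 118 in the knockout and 59 in the control, and chr1:2245424-2245997 with 89 in the knockout and 62 in the control. The median fold of peaks 1 fragment below the threshold was 9.39 in the knockout and 9.14 in the control, close to that of the members.

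High knockout peaks without a high control partner were more numerous than the reverse. At or over the pileup threshold and within the background limit were 7521 knockout peaks (2.59% of the autosomal list) and 4113 control peaks (1.60%). The knockout library was 1.51 times as deep, and its threshold was 20.3 library means against 20.5 in the control. The part of depth and threshold in the difference was not tested. Of these, 39.6% of the knockout peaks (95% exact binomial interval 38.5 to 40.7) overlapped a member, and 73.4% of the control peaks (72.0 to 74.8) were members. All intervals here cover counting error or the scatter of regions within these libraries, not replicate error. Of the 4542 high knockout peaks that overlapped no member, 4380 overlapped a control peak under its threshold, with a median control pileup of 50, and 146 overlapped no control peak. Of the 1093 high control peaks that were no members, 1007 overlapped a knockout peak under its threshold, with a median knockout pileup of 82. Only 2 overlapped no knockout peak at all. Of all 256848 autosomal control peaks, 226117 overlapped a knockout peak. The matching number for all autosomal knockout peaks is not given here.

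The 10 members with the highest mean scaled pileup lay on chromosomes 1, 5, 7, 10, 13, 14 and 16. The highest was chr5:70305862-70306504, 643 bp long in the control, with pileups of 206 (exact Poisson interval 179 to 236) in the knockout and 147 (124 to 173) in the control. These were 46.6 library means in the knockout and 50.3 in the control. Its background differed, at 2.13 times the lowest in the knockout and 3.81 times in the control, so its fold was 19.9 in the knockout and 12.2 in the control. On chromosome 10, chr10:133752103-133753527 had pileups of 208 in the knockout and 125 in the control, and its fold was 13.8 in the knockout and 14.3 in the control.

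Of these 10 regions 4 lay on chromosome 1 between 142796356 and 148245248. The region chr1:148243157-148245248 had pileups of 193 in the knockout and 136 in the control. At chr1:145091917-145092801 the pileups were 208 in the knockout and 123 in the control. The region chr1:145255190-145255727 had 185 in the knockout and 126 in the control, and chr1:142796356-142797172 had 156 in the knockout and 126 in the control. The 4 had backgrounds between 2.79 and 4.32 times the lowest in both lists, well above the autosomal medians. The other 4 were chr14:104717071-104718512, which differed most between genotypes and is described below, chr7:149462394-149462967 with pileups of 219 in the knockout and 86 in the control, chr16:18436315-18438188 with 179 in the knockout and 110 in the control, and chr13:28549630-28550611 with 177 in the knockout and 111 in the control. In 7 of the 10, the scaled pileups of knockout and control differed by less than 0.20 on the log2 scale.

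Ranked instead by fold, other regions led. The 5 members with the highest fold in the lower of the 2 lists, a ranking chosen after the values were seen, had folds between 18.3 and 22.3 in the knockout and between 18.8 and 19.9 in the control. Their backgrounds were at most 1.28 times the lowest in the knockout and 1.30 times in the control. In chr10:27732152-27732965 the knockout pileup was 120 with a fold of 22.3, and the control pileup was 82 with a fold of 19.1. In chr5:77588523-77589110 the knockout pileup was 101 with a fold of 18.8, and the control pileup was 77 with a fold of 19.7. The fold of chr1:100623911-100624555 was 19.5 in the knockout and 19.2 in the control. None of these 5 was among the 10 highest by pileup. In the 5, the log2 ratio of scaled pileup ran from -0.21 to -0.05.

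The members were long. Their median length was 1453 bp in the knockout (quartiles 886 and 2386) and 1212 bp in the control (quartiles 813 and 1954). All autosomal peaks had medians of 466 bp in the knockout and 459 bp in the control. Among members 725 of 3020 (24.0%, 22.5 to 25.6) were 2 kb or longer in the control, against 3101 of 256848 autosomal control peaks (1.21%). Members therefore made up 23.4% (21.9 to 24.9) of the control peaks of 2 kb or more. Only 48 members (1.59%) were shorter than 500 bp, while 57.9% of all autosomal control peaks were. A long peak offers more positions for a high summit, so length is not independent of the rule. Within the members the rank correlation of control length and control pileup was 0.09 over 3020 regions, which share a library and a lower bound on pileup. Together the members covered 4.85 Mb, or 3.27% of the length of autosomal control peaks, with 1.18% of their number.

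**Figure D2:**
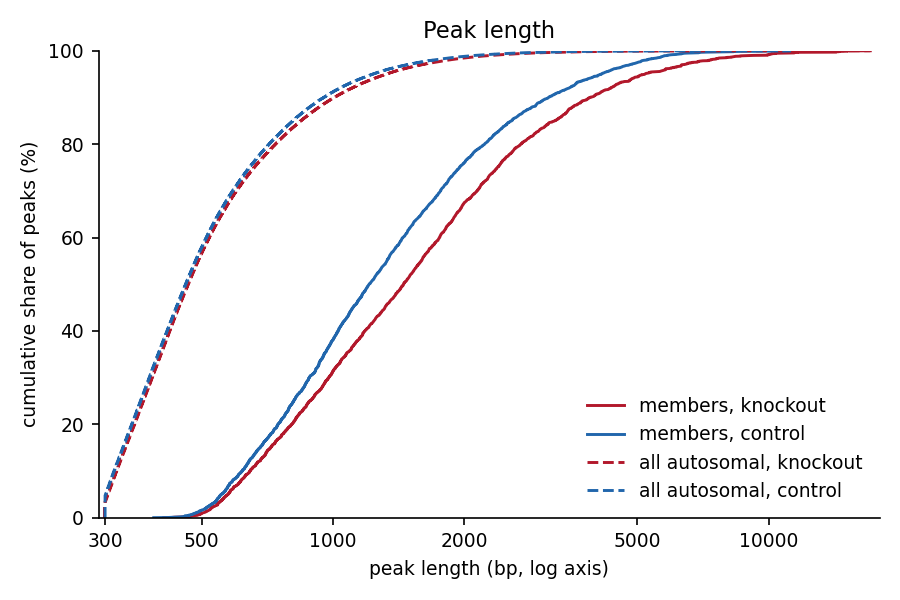
Cumulative share of peaks (vertical axis, percent) by peak length (horizontal axis, bp, log scale) for members and all autosomal peaks in the knockout (red) and control (blue) lists. The curves of the members lie to the right, with medians of 1453 bp in the knockout and 1212 bp in the control, against 466 bp in the knockout and 459 bp in the control for all autosomal peaks.

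The 5 longest members in the control list lay at most 2.15 Mb from a chromosome end, taken as the first or last peak of the lists. The longest, chr19:1916710-1927973, spanned 11264 bp in the control and overlapped 2 knockout peaks, of which the higher spanned 17122 bp. Its pileup was 129 in the knockout and 62 in the control. The region chr16:581488-592621 spanned 11107 bp in the knockout and 11134 bp in the control. Its pileup was 140 in the knockout and 81 in the control. The region chr5:1051316-1061187 spanned 10044 bp in the knockout and 9872 bp in the control, with a pileup of 119 in the knockout and 71 in the control. The region chr19:2215142-2224998 was 9857 bp long in the control, and its partner of 6305 bp had its summit 10938 bp away. In chr1:1415723-1424279 the borders and the scaled levels nearly coincided, with lengths of 8608 bp in the knockout and 8557 bp in the control and scaled pileups of 24.9 in the knockout and 24.6 in the control.

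Members were concentrated toward the chromosome ends. Within 5 Mb of the first or last peak of a chromosome lay 1085 of 3020 members (35.9%, 34.2 to 37.7) and 39834 of 256848 autosomal control peaks (15.5%). Chromosomes whose first peak lay 10 Mb or more from their start, such as chromosome 13, were counted at their far end only. Per 1000 control peaks there were 31.4 members in the outermost Mb, 42.7 (38.6 to 47.0) from 1 to 2 Mb and 18.4 (16.6 to 20.3) from 2 to 5 Mb. The number fell to 8.30 from 5 to 10 Mb, 6.72 from 10 to 20 Mb and 6.62 from 20 to 50 Mb, and was 13.5 beyond 50 Mb. The members near the ends were longer, with control medians of 1675, 1969 and 1696 bp in the 3 outer bins and 949 bp beyond 50 Mb. Human chromosome ends are known as rich in G, C and CpG.

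The pileup of ordinary peaks and the background were also higher near the ends. From 1 to 2 Mb the median scaled pileup of all autosomal peaks was 10.4 in the knockout and 10.3 in the control, against 7.91 in the knockout and 8.21 in the control from 20 to 50 Mb. The median background was 1.70 times the lowest in the knockout and 1.52 times in the control from 1 to 2 Mb, and 1.17 times in the knockout and 1.10 times in the control from 20 to 50 Mb. When regions were chosen by a fold of at least 12 in both lists instead, which is the pileup relative to that background, no such concentration at the ends was seen. Of 1669 such regions 190 (11.4%, 9.90 to 13.0) lay within 5 Mb of an end, below the 15.5% of all autosomal control peaks. A fold of 12 needs a higher pileup over a higher background, so this rule works against regions of high background. The lower share is therefore a description only. The 2 sets shared 394 regions, 13.0% of the members and 23.6% of the regions chosen by fold.

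**Figure D3:**
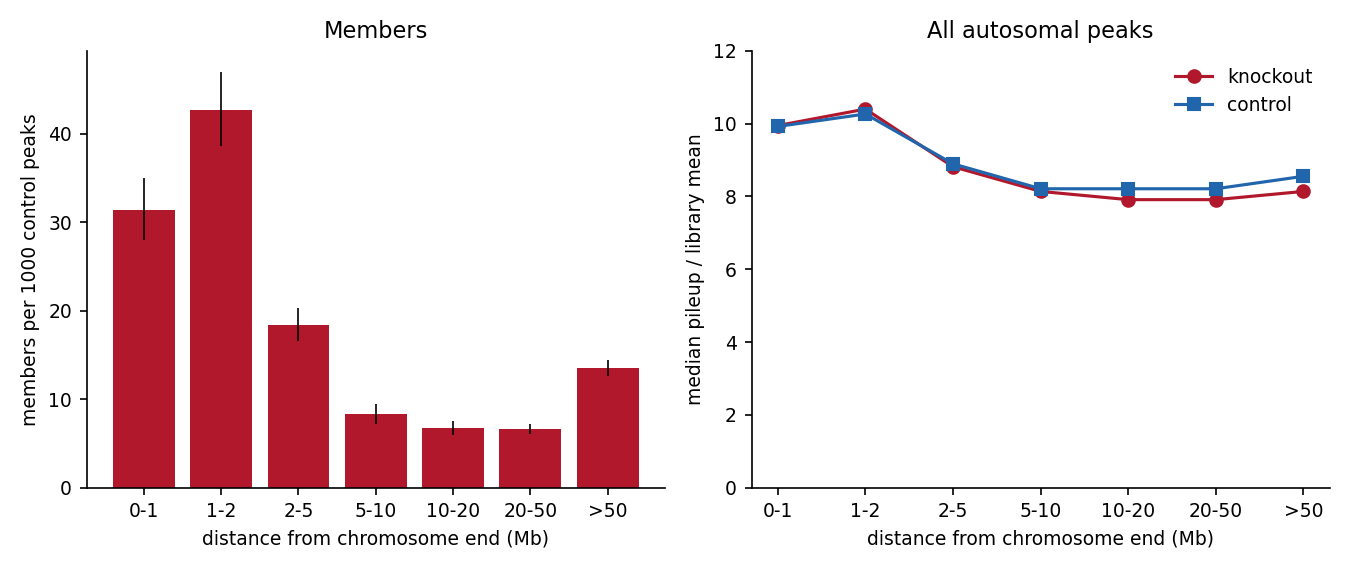
Left, members per 1000 control peaks by distance from the chromosome end of the lists in Mb, with exact binomial 95% intervals. Right, the median scaled pileup of all autosomal peaks in the knockout (red circles) and control (blue squares) in the same bins. Members peak at 42.7 per 1000 from 1 to 2 Mb, where ordinary peaks are also highest. The value of 13.5 beyond 50 Mb includes 153 members of chromosome 13 before 35 Mb and many of chromosome 7.

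The members were spread very unevenly over the chromosomes. Chromosome 7 alone held 629 (20.8%), or 37.5 per 1000 of its control peaks (34.7 to 40.5), against 2391 on all other autosomes, or 0.996% of their control peaks. Chromosomes 13 with 25.5 (21.7 to 29.7), 19 with 23.8 and 16 with 19.3 per 1000 followed. Chromosome 2 held 23 members among 17643 control peaks, or 1.30 per 1000 (0.827 to 1.96), chromosome 4 held 18, or 2.10, and chromosome 6 held 41, or 3.34. On chromosomes 19 and 16 most members sat within 5 Mb of an end, with 164 of 266 and 163 of 234. On chromosome 7 this was 124 of 629, and on chromosome 13 it was 2 of 156.

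Chromosomes 7 and 13 each held a rich and a poor stretch, with borders placed after the values were seen. On chromosome 7, 551 members lay beyond 60 Mb, or 46.7 per 1000 control peaks (43.0 to 50.7), and 78 before it, or 15.7 (12.4 to 19.5). On chromosome 13, 153 of 156 members lay before 35 Mb, or 64.4 per 1000 (54.9 to 75.1), and 3 beyond it, or 0.799 (0.165 to 2.33). The background followed the same borders in both genotypes. Beyond 60 Mb on chromosome 7 its median was 1.70 times the lowest in the knockout and 1.52 times in the control, and before 60 Mb it was 1.28 times in the knockout and 1.14 times in the control. Before 35 Mb on chromosome 13 it was 1.85 times in the knockout and 1.78 times in the control, and beyond 35 Mb it was at the lowest value in both. The median fold hardly differed between the stretches, with 5.17 in the knockout and 5.35 in the control before 35 Mb, against 5.35 in both beyond it.

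By fold the chromosomes came closer together. Chromosome 7 held 165 of the 1669 regions with a fold of at least 12 in both lists (9.89%), or 9.84 per 1000 control peaks, and chromosome 13 held 38, or 6.20 per 1000. Chromosome 3 held 155 (9.79 per 1000), and chromosome 2 held 31 (1.76 per 1000), low by this rule too. Over the 22 autosomes the rank correlation between members per 1000 control peaks and the median control background was 0.86, and with the fold rule it was 0.26. Over 514 bins of 5 Mb with at least 100 control peaks the rank correlation was 0.68 for members and 0.30 with the fold rule. The points share the same libraries, and the correlations are descriptions. A fold of at least 12 asks for a higher pileup where the background is higher. The lower correlations with the fold rule are therefore no check on the higher ones.

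**Figure D4:**
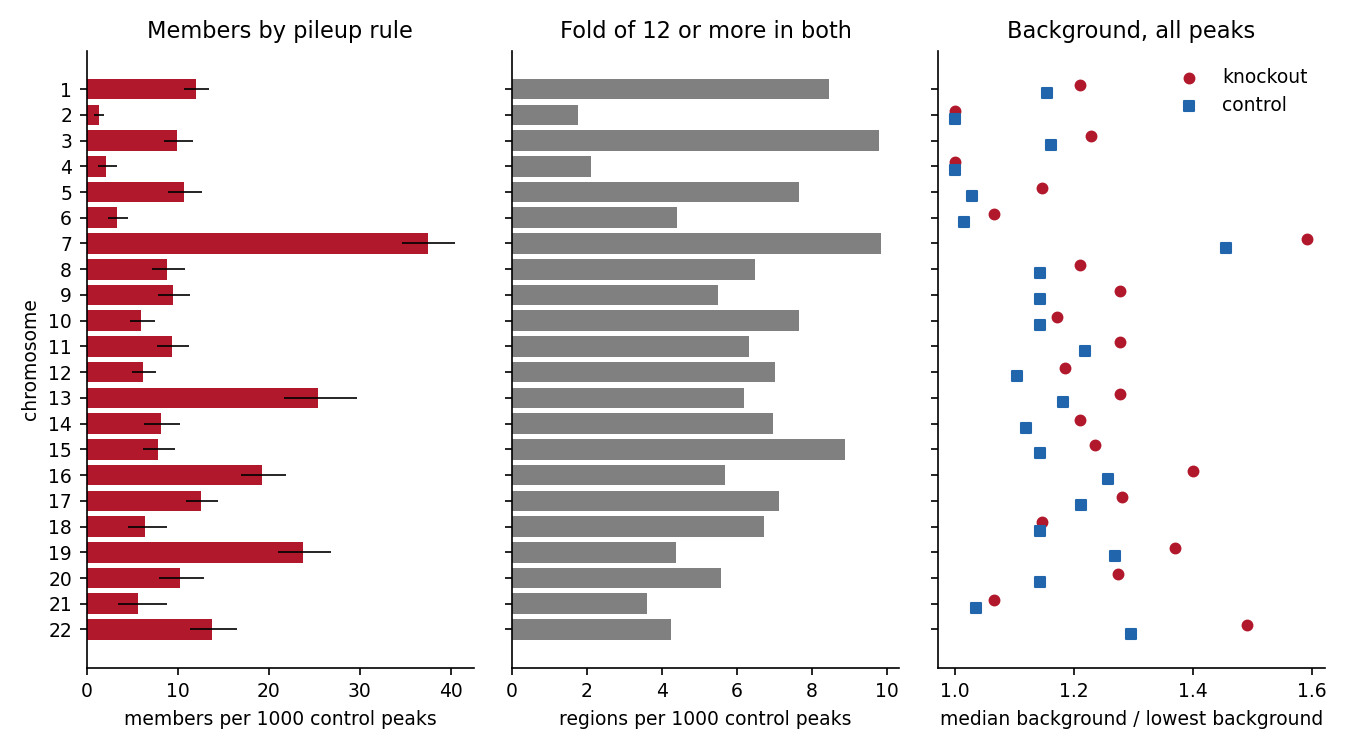
By chromosome (rows), members per 1000 control peaks with exact binomial 95% intervals (left), regions with a fold of at least 12 in both lists per 1000 control peaks (middle), and the median background of all peaks over the lowest of the list (right; red circles knockout, blue squares control). Chromosome 7 leads at 37.5 per 1000 by pileup and has the highest background, with medians of 1.59 in the knockout and 1.45 in the control; by fold it has 9.84 per 1000.

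Members were also counted within strata of background, as a description, since the rule used both pileup and background. Among control peaks with a background between 2 and 3 times the lowest, 92.2 per 1000 (84.8 to 100.0) were members within 5 Mb of an end and 51.7 (47.7 to 55.9) further in, both without chromosome 7. On chromosome 7 it was 94.8 (83.7 to 106.9). Between 1.5 and 2 times, the values were 21.9 near the ends, 12.5 further in and 35.4 on chromosome 7. At up to 1.5 times they were 2.49 near the ends (1.88 to 3.24), 1.65 further in (1.46 to 1.86) and 11.9 on chromosome 7. Between 3 and 5 times, the values were 250 near the ends (219 to 283), 186 further in (165 to 209) and 233 on chromosome 7 (196 to 274). There the interval on chromosome 7 overlapped that of the inner regions elsewhere, and the interval near the ends did not. These strata were set after the results above were seen. The share of members grew with background in each, but nothing is read from this. A listed peak over a high background already needs a high pileup.

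Another member lay within 10 kb of 1134 of the 3020 (37.5%, 35.8 to 39.3), centre to centre, and within 50 kb of 1938 (64.2%). The share within 10 kb was 23.1% with a background limit of 3 times the lowest, 25.6% in 1-to-1 pairs, and 8.39% in the regions chosen by fold. No share expected from the density of peaks was computed. The 1134 formed 409 clusters, counted in control peaks, so neighbours that share a knockout peak are counted separately. The largest held 10 members in 35.4 kb on chromosome 9, from 139387089 to 139422534, and 7 others held 8 each. Around members the peaks of every height were dense, with a median of 36 other peaks within 50 kb in either list, against 25 around all autosomal knockout peaks and 23 around all autosomal control peaks. Of 2697 windows of 1 Mb with a control peak, 781 held a member, and 79 windows with at least 10 held 1469 (48.6%).

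The 5 windows richest in members all lay within 3 Mb of a chromosome end. Chromosome 19 from 1 to 2 Mb held 53 members among 375 control peaks (14.1%), and chromosome 1 from 1 to 2 Mb held 46 among 445 (10.3%). Chromosome 16 held 44 from 2 to 3 Mb and 37 in its first Mb, and chromosome 9 held 35 from 139 to 140 Mb. In these windows the median scaled pileup of members was between 24.9 and 27.4 in the knockout and between 22.6 and 24.1 in the control. The median log2 ratio of the members, knockout over control, was 0.20 in the chromosome 19 window and between 0.11 and 0.16 in the other 4.

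Levels relative to the library mean differed little between knockout and control. The median log2 ratio of scaled pileup, knockout over control, was 0.08 (0.07 to 0.08) over the 3020 members, with quartiles of -0.04 and 0.21. In the 1669 regions chosen by a fold of at least 12 instead, the median was -0.0027 with an interval (-0.01 to 0.02) spanning 0. The shift above 0 thus depended on how the regions were chosen. Over all 202907 autosomal 1-to-1 pairs the median was 0.04, with quartiles of -0.18 and 0.26. The ratio was above 0 in 67.0% of members and in 54.8% of all pairs. Taking the highest of several partners can raise the knockout value, and among the 2173 members in 1-to-1 pairs the median was 0.05 (0.04 to 0.06). The SD over members was 0.20. Counting error alone gives a member an SD of 0.22 at the median, and both thresholds narrow the observed spread. Scaling by the library means also removes any change common to the whole genome.

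Few members differed by 1.5-fold or more. Higher in the knockout by over 1.5-fold were 58 of 3020 members (1.92%), against 5.17% of all autosomal pairs, and 1 member (0.0331%) was lower by over 1.5-fold, against 3.56% of all pairs. Over 2-fold, 2 members were higher, against 0.447% of all pairs, and 1 was lower, against 0.138%. The rule used these pileups and bounded both, and counting error is larger in the weaker pairs, with a median SD of 0.37, so nothing is read from the smaller shares. Of the 58 higher members, 18 were in 1-to-1 pairs.

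The member furthest in favour of the control was chr14:104717071-104718512. It had a pileup of 115 (94.9 to 138) in the knockout and 162 (138 to 189) in the control, the highest control pileup of all members. Scaled, this was 26.0 in the knockout and 55.4 in the control, a log2 ratio of -1.09 with a counting SD of 0.18. Here and in the extremes below, the SD leaves out that the regions were picked as the most extreme of all members. The peak had nearly the same borders in both lists, with lengths of 1429 bp in the knockout and 1442 bp in the control, and summits 2 bp apart. Its background was higher in the knockout, at 3.62 times the lowest, than in the control, at 2.67 times, and the fold was 6.82 in the knockout and 18.5 in the control. Only 3 other 1-to-1 pairs lay within 100 kb, with a median log2 ratio of -0.22 and the lowest at -0.32.

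The next in favour of the control were much closer to equal levels. The region chr20:61200872-61202056 had pileups of 92 in the knockout and 89 in the control, a log2 ratio of -0.55 with a counting SD of 0.21. Of the other 3, which ran from -0.54 to -0.50, 2 lay near the end of chromosome 3 and are named by their starts. The one at 197387432 had 103 in the knockout and 99 in the control, and the one at 195703487 had 109 in the knockout and 102 in the control. Other 1-to-1 pairs within 100 kb of these 2 were also lower in the knockout, with median log2 ratios of -0.18 and -0.23. Such medians were 0.04 around the chromosome 20 region and -0.01 around the chromosome 13 region named next. The last, chr13:28553570-28554890, had 124 in the knockout and 116 in the control. It starts within 4 kb of chr13:28549630-28550611, one of the 10 highest members, whose log2 ratio was 0.08.

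The member furthest in favour of the knockout was chr13:26759579-26761537. It had a pileup of 205 (178 to 235) in the knockout and 65 (50.2 to 82.8) in the control, a log2 ratio of 1.06 with a counting SD of 0.21. Its length was similar in both lists, 1898 bp in the knockout and 1959 bp in the control, but the summits lay 322 bp apart, so the pileups were read at different places. The background was 2.98 times the lowest in the knockout and 2.79 times in the control. The 10 other 1-to-1 pairs within 100 kb had a median log2 ratio of 0.07 and none above 0.52. The region chr1:933132-933670 followed with 186 in the knockout and 60 in the control, a log2 ratio of 1.03. Its knockout peak was 2069 bp long and its control peak 539 bp, with summits 326 bp apart. The other 3, 2 on chromosome 7 and 1 on chromosome 15, had log2 ratios between 0.94 and 0.99. In these 3 the knockout peak was also longer than the control one and the summits lay 243 to 1451 bp apart, so the 2 pileups were read at different places.

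By chromosome the median ratio of members rose with that of all 1-to-1 pairs, with a rank correlation of 0.72 over 22 autosomes. All pairs include the members in 1-to-1 pairs. The median log2 ratio of members was highest on chromosome 4 at 0.19 (-0.02 to 0.34, 18 members), chromosome 9 at 0.12 (0.07 to 0.16) and chromosome 16 at 0.11 (0.09 to 0.15). All pairs of these chromosomes had 0.04, 0.05 and 0.11, in that order. The median of members was lowest on chromosome 2 at -0.01 (-0.14 to 0.10, 23 members), where all pairs had -0.09. The 629 members of chromosome 7 had a median of 0.10 (0.08 to 0.11), against 0.07 in all pairs of that chromosome. The last 28 Mb of chromosome 3 were taken as a stretch because earlier results of these same data had it lower in the knockout. Nothing is therefore read from the direction there. In that stretch the median was -0.14 (-0.19 to -0.09) over 47 members, of which 34 were below 0. Before that stretch chromosome 3 held 111 members with a median of 0.10 (0.05 to 0.14) and with 35 below 0.

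**Figure D5:**
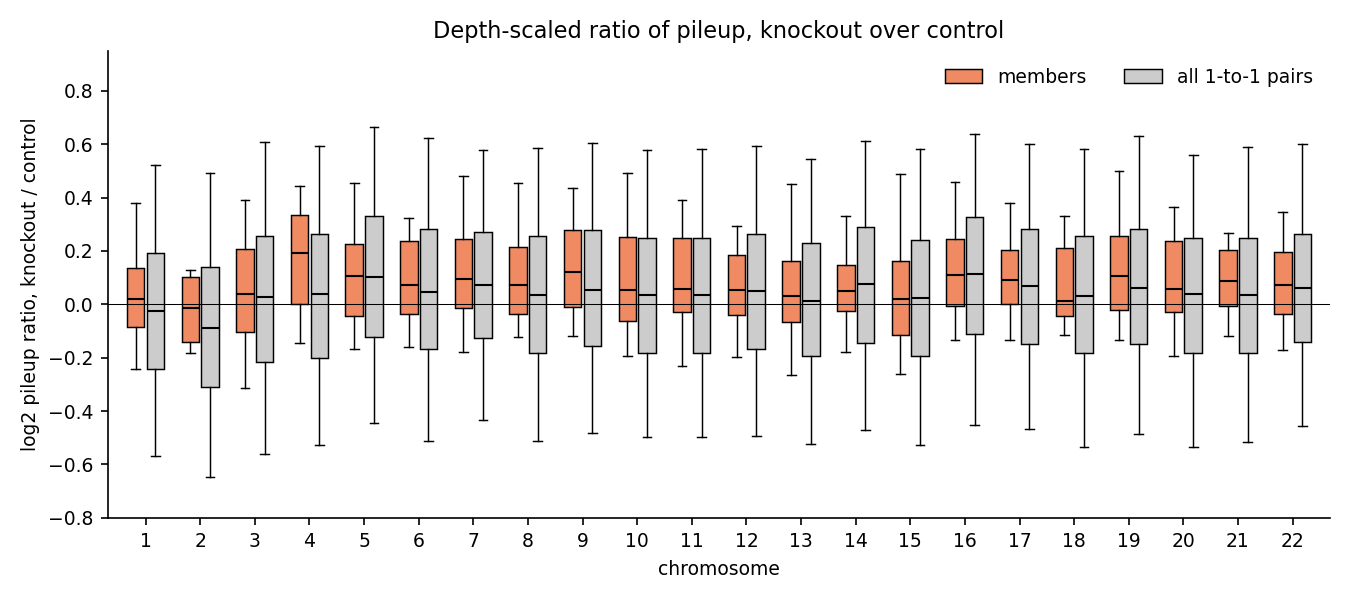
Log2 ratio of scaled pileup, knockout over control (vertical axis), by chromosome for members (orange) and all autosomal 1-to-1 pairs (grey). Boxes show quartiles and medians, whiskers the 5th and 95th percentiles. The medians of members run from -0.01 on chromosome 2 to 0.19 on chromosome 4, and the boxes of members are narrower than those of all pairs.

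The summits of knockout and control fell close together. The median distance was 48 bp (46 to 51) over members and 40 bp over all autosomal 1-to-1 pairs, or 4.12% of the control peak's length in members and 8.05% in all pairs. Summits were within 100 bp in 2110 members (69.9%, 68.2 to 71.5). This share was higher in all autosomal 1-to-1 pairs, at 162312 of 202907 (79.99%). Summits were more than 500 bp apart in 386 members (12.8%). The distance grew with length, with medians of 33 bp in the 1149 members under 1 kb, 54 bp in the 1146 from 1 to 2 kb and 91 bp in the 725 of 2 kb or more. In the last of these the third quartile was 740 bp. Exactly 1 knockout peak overlapped each of 2798 members (92.6%), and 2 or more overlapped each of 222. Matched from both sides, 2173 members (72.0%) were in 1-to-1 pairs. That was fewer than the 89.7% of all autosomal control peaks with a knockout peak. In all, 168 members shared their highest knockout partner with a neighbouring member and are not separate regions in the knockout.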

How the data were processed

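MeDIP-seq libraries were aligned with BWA to hg19 after FastQC, and MACS2 called peaks in each library, per the submitters' processing notes. Tool versions, settings and the treatment of duplicate reads are not stated. Each of the 2 deposited lists gives the authors' pileup signal (whole numbers, unscaled), fold ratio over local background, and −log10 p and −log10 q values, which were not used to choose members. Lists were matched to samples by genotype and antibody words.

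Background was computed as (pileup + 1)/fold − 1, and pileups were scaled by the lowest background of each list. Intervals at 95% are exact Poisson for counts, exact Clopper-Pearson for shares and order-statistic for medians. The first 2 kinds cover counting error only, and those of medians the scatter over regions. No test between genotypes was possible, as each group held 1 library. The regions named were the 10 highest by mean scaled pileup, the 5 highest and 5 lowest ratios, the 5 longest, the 5 richest windows and examples just inside and outside the thresholds. The 5 highest by fold and the largest cluster were named after values were seen. The members, thresholds and lists were chosen with earlier results of these data known. Scripts (Python 3.11.15, pandas 2.3.3, SciPy 1.17.1) were tested on simulated lists. Positions are hg19, counted from 1. No genome or annotation of that build was used here, so regions are given without genes or sequence.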

Additional observations from a re-analysis of the deposited data

Results flagged for a closer look

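The rule took autosomes only, so chromosome X was set apart as data outside the main description. There, 10 regions passed the same pileup and background limits, or 2.16 per 1000 of its 4633 control peaks. Their median pileup was 106.5 in the knockout and 80 in the control, and the median log2 ratio of scaled pileup, knockout over control, was -0.22. These values are a description, with no test.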

How the results depend on the processing

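Of 53 alternatives over 6 results, 21 stayed within 1.5 times of a count or within the 95% interval of another value, 31 left these bounds and 1 changed sign. The 45 from the plan and the 8 chosen after seeing the data (a partner with the nearest summit, and leaving out chromosome 7) are counted together. The cause was not tested, except that stricter limits keep fewer regions by construction. The 3020 members became 996 with stricter thresholds (a control pileup of at least 70, the knockout's raised in proportion), and 9031 with looser ones (50 in the control and 75 in the knockout). They became 1884 with a background limit of 3 times the lowest, and 1669 with a fold of at least 12. Their median log2 ratio (knockout over control) was 0.063 with at least 50% overlap of each peak. It was 0.054 with the background limit of 3, 0.052 in 1-to-1 pairs, 0.054 when scaled by the median of the pairs, and -0.0027 (-0.01 to 0.02) in regions chosen by fold.

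The median control length of 1212 bp became 1332 bp with the stricter and 1037 bp with the looser thresholds, 1139 bp with the background limit of 3, 1082 bp in 1-to-1 pairs, 775 bp by fold and 1268 bp without chromosome 7. The median summit distance of 48 bp became 45 bp with the looser thresholds and with 50% overlap, 41 bp with the background limit of 3 and in 1-to-1 pairs, and 28 bp by fold. The share of members with another within 10 kb, 37.5%, was 27.7% with the stricter and 49.1% with the looser thresholds, 31.6% with 50% overlap, 23.1% with the background limit of 3, 41.8% with none, 25.6% in 1-to-1 pairs, 8.39% by fold and 34.6% without chromosome 7. Within 50 kb it was 64.2%. The median of 36 other peaks within 50 kb was 33 in 1-to-1 pairs and 27 by fold, and 7 within 10 kb.

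The planned sequence content was not run, for want of an hg19 genome. No paired analysis was possible because there is 1 library a group. Depth limits single regions: a pileup of 65 has a Poisson interval of 50.2 to 82.8.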

Other observations

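The background limit left out 304 regions that passed both pileup thresholds. Their pileups reached 517 in the knockout and 456 in the control, but their median fold was only 4.27 in the knockout and 4.47 in the control, with median backgrounds of 8.09 times the lowest in the knockout and 7.03 times in the control. Of the 304, 78 lay on chromosome 1 and 48 on chromosome 7. Within 2 Mb of the longest stretch without peaks on their chromosome lay 93 (30.6%), against 3.15% of the members and 2.77% of all autosomal control peaks. On chromosomes counted at their far end only, the first peak was also taken as such a border.

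Among bins of 5 Mb, chromosome 1 from 140 to 145 Mb had the most members for its peaks, 19 of 202 control peaks, followed by chromosome 19 from 0 to 5 Mb with 148 of 1770. Chromosome 5 from 65 to 70 Mb stood apart from the other rich bins in its background. It held 38 members among 600 control peaks, with a median background of 1.20 times the lowest in the knockout and 1.07 times in the control, and 18 regions with a fold of at least 12 in both lists, or 30.0 per 1000. Among the 12 richest bins, those on chromosomes 7, 13, 16 and 19 had median backgrounds of at least 1.70 times in the knockout and 1.52 times in the control.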
